A study of Rattus norvegicus with 9 samples.

Results

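The transcripts described here are those of the adhesion molecules that activated endothelium displays to circulating leukocytes. They were chosen by symbol, as Sele (E-selectin), Selp (P-selectin), Icam1 and Vcam1, with Madcam1 looked for beside them. Of these 5 symbols, 4 were among the 5760 genes that the deposited tables list, and Madcam1 was listed in neither table. Sele and Selp were listed in both tables, Icam1 and Vcam1 in 1 of them.

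Cardiac RNA of 9 Sprague Dawley rats was sequenced, 3 rats in each of 3 groups, and the study's methods describe the rats as male without giving an age. The Con group had a sham operation and received distilled water, the Model group had heart failure (HF) induced by tying off the left anterior descending coronary artery and received distilled water, and the Cal group had the same ligation and received calycosin (Cal), a plant isoflavone, at 80 mg/kg per day. Dosing was oral, began the day after surgery and lasted 28 days. The labels give heart as the tissue without naming a region, so infarcted and spared muscle are not told apart.

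Each table covers 6 libraries. One holds the libraries headed Cal and Model (4288 genes) and the other those headed Cal and Con (2458 genes), and only genes to which the authors had given an adjusted p under 0.05 are listed. The values, read counts that the authors divided by a library's size factor, are called normalized counts. Reads on listed genes numbered between 2860826 and 4659882 per library, and total depth is unknown. The column headings conflict: in both tables, the authors' mean columns headed Model hold the means of the sample columns headed Cal, and the mean column that the Cal and Model table heads Cal was computed from the sample columns headed Model (4288 of 4288 genes). Libraries are therefore named by their sample heading throughout, and by the mean columns every library headed Cal would be a Model library and the reverse. The table that holds the libraries headed Cal and Con is itself named for the model against the control group, as its mean columns are. Which set of names is right was not settled here, so each direction below belongs to a heading and not to a treatment. The libraries headed Con carry the same name in both kinds of column. Myh6, the main myosin heavy chain of the adult rodent ventricle and a marker of the labelled tissue, stood between 247859 and 336025 normalized counts in the libraries headed Con and Cal.

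Leukocytes leave the blood in a sequence of steps. E-selectin and P-selectin on the vessel wall bind sialylated, fucosylated sugars on leukocytes and slow them to a roll. ICAM-1 then binds the leukocyte integrins LFA-1 and Mac-1, and VCAM-1 binds VLA-4, which brings the cells to arrest. E-selectin, ICAM-1 and VCAM-1 are made anew when TNF or IL-1 activates NF-kB in the endothelial cell, whereas P-selectin is also stored ready-made in endothelial and platelet granules.

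The members stood together far above the libraries headed Con, and NF-kB is the factor best known to act on them. Windows around the annotated rat start of 3 members are therefore printed. They come from RefSeq (rat assembly GRCr8) and run from 250 bases before to 50 bases after the annotated start, 5′ to 3′ on the gene's strand. Capitals mark matches, on either strand, to the NF-kB consensus decamer or to the relaxed kB pattern GGNNNTTCC. Sele, chr13:78936264-78936563 on the + strand, Icam1, chr8:27829595-27829894 on the + strand, and Vcam1, chr2:206742734-206743033 on the - strand, read as follows.
Sele: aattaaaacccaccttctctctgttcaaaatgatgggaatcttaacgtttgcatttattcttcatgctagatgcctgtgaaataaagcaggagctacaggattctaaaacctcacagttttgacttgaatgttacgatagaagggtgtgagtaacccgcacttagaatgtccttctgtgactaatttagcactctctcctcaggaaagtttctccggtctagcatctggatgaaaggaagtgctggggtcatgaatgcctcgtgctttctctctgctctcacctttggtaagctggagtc
Icam1: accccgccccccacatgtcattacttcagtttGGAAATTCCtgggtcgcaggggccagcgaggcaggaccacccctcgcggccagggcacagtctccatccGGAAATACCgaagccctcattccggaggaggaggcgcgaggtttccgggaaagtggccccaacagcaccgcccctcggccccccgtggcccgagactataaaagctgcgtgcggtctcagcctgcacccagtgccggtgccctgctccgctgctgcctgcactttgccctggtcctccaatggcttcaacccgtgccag
Vcam1: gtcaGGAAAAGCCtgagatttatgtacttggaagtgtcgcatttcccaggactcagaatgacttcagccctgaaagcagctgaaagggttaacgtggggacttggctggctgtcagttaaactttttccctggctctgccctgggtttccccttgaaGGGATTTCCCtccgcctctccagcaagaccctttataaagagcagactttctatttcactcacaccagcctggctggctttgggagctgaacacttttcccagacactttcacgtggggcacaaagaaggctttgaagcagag
The Icam1 promoter held GGAAATTCC beginning at base -218, which matches on both strands, and GGAAATACC at -149, which matches on the - strand. The Vcam1 promoter held the consensus decamer GGGATTTCCC at -93, which contains a relaxed match, and GGAAAAGCC at -246 on the - strand. The Sele window held neither pattern, which says only that these letters were not in it. The 50 bases after the annotated Sele start open with ATG, so this start may be that of the coding sequence. The bases before it may then not be the Sele promoter, and the lack of a match says nothing about that promoter. Over all 33469 rat promoters of this length, 5.02% held the consensus decamer and 18.3% the relaxed pattern. TATAAA, found in 14.2% of promoters, stood at -53 in Icam1 and at -60 in Vcam1 and not in the Sele window. The AP-1 pattern TGANTCA, found in 7.33%, stood in none of these 3 windows. Selp had no entry in the promoter table. The promoter of Madcam1, which neither expression table lists, was scanned too and is not printed. It held the consensus decamer at -118 and at -106, both on the - strand. A link of these matches to the levels was not tested.

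Sele, the rolling receptor found on activated endothelium, was near the floor in the libraries headed Con and among the abundant transcripts in those headed Cal. It lies on mouse chromosome 1 in the tables' annotation (ENSMUSG00000026582, 164048234 to 164057677, + strand), whose build the tables do not name. In the Cal and Con table, Sele had 49.4, 31.4 and 30.4 normalized counts in the 3 libraries headed Con and 5800, 8008 and 7359 in those headed Cal. All 3 libraries headed Cal stood above all 3 headed Con. The means were 37.1 ± 10.7 and 7056 ± 1135 (SD, n = 3), a 190-fold ratio. The log2 fold change was 7.56 (SE 0.20, adjusted p = 1.33e-07 by limma over the listed genes), which placed Sele at rank 6 from the top among 2458 genes.
In the Cal and Model table, Sele had 998, 1989 and 1476 normalized counts in the libraries headed Model and 5186, 7142 and 6601 in those headed Cal. The groups did not overlap here either. The means were 1488 ± 496 and 6309 ± 1010 (SD, n = 3), 4.24-fold higher in the libraries headed Cal, which the mean columns call Model. The log2 fold change was 2.13 (SE 0.26, limma adjusted p = 0.000539), the 331st largest rise among 4288 genes.

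Selp, the rolling receptor of activated endothelium and platelets, was also near the floor in the libraries headed Con, but it was highest in those headed Model. It lies on the same stretch of mouse chromosome 1 (ENSMUSG00000026580, 164115264 to 164150026, + strand). In the Cal and Con table, Selp had 16.8, 11.8 and 21.3 normalized counts in the libraries headed Con, which are 18, 12 and 21 reads, and 612, 1448 and 1157 in those headed Cal. The means were 16.6 ± 4.74 and 1072 ± 425 (SD, n = 3), a 64.6-fold ratio, with a log2 fold change of 5.88 (SE 0.33, limma adjusted p = 3.53e-06). The groups did not overlap.
In the Cal and Model table, Selp had 2491, 3515 and 3646 normalized counts in the libraries headed Model and 547, 1292 and 1038 in those headed Cal. Each library headed Model stood above each headed Cal, the opposite of Sele. The means were 3217 ± 632 and 959 ± 378 (SD, n = 3), 3.36-fold higher in the libraries headed Model, which the mean columns call Cal. The log2 fold change of Selp, headed Cal over headed Model, was -1.81 (SE 0.32, limma adjusted p = 0.00194).

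Icam1, the endothelial ligand of LFA-1 and Mac-1, was the most abundant of the 4 in the libraries headed Cal. It lies on mouse chromosome 9 (ENSMUSG00000037405, 21015985 to 21028817, + strand). It had 316, 402 and 213 normalized counts in the libraries headed Con and 18106, 24992 and 24590 in those headed Cal. The means were 310 ± 94.7 and 22562 ± 3865 (SD, n = 3), a 72.8-fold ratio, and the log2 fold change was 6.21 (SE 0.22, limma adjusted p = 6.1e-07). Icam1 rose 15th most of 2458 genes.
Vcam1, the ligand of VLA-4, lies on mouse chromosome 3 (ENSMUSG00000027962, 116109949 to 116129688, - strand). It had 547, 563 and 423 normalized counts in the libraries headed Con and 8610, 6587 and 9894 in those headed Cal. The means were 511 ± 76.5 and 8364 ± 1667 (SD, n = 3), a 16.4-fold ratio, and the log2 fold change was 4.02 (SE 0.16, limma adjusted p = 8.52e-07). Neither gene's groups overlapped. Icam1 and Vcam1 are not listed in the Cal and Model table and were not analysed in the libraries headed Model.

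**Figure D1:**
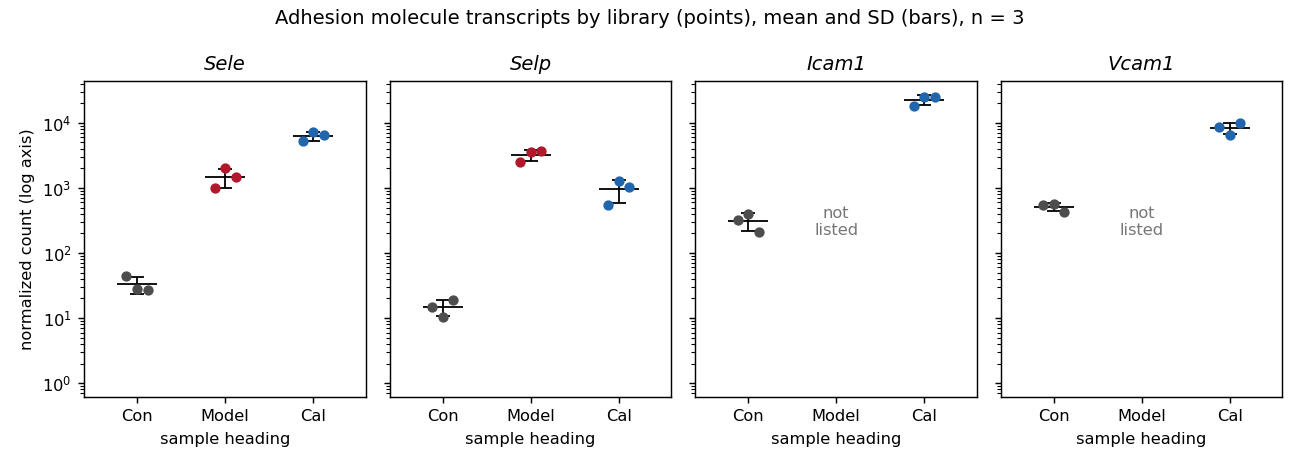
Normalized counts (log axis) of the 4 adhesion molecules in each library, grouped by sample heading, with points for libraries and bars for mean and SD (n = 3). Sele and Selp are on the scale of the Cal and Model table, with the libraries headed Con brought to it through the shared libraries headed Cal, and Icam1 and Vcam1 are on that of the Cal and Con table. Sele steps up from Con to Model to Cal, whereas Selp is highest in Model.

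All 4 members passed the test as higher in the libraries headed Cal than in those headed Con, where 18.0% of all listed genes did so and 10.9% passed as lower. Against the libraries headed Model, Sele passed as higher and Selp as lower, where 28.4% of listed genes passed as higher and 31.6% as lower. Groups that did not overlap were the rule among listed genes, at 97.4% in the Cal and Con table and 98.2% in the Cal and Model table, because genes were listed on a test of these same libraries. The adjusted p-values given here are a re-test within that selection and not independent evidence. An exact two-sided permutation test of any member reached p = 0.1, the smallest that 3 against 3 libraries allows. Over all listed genes the median log2 fold change was -0.52 against the libraries headed Model and 0.37 against those headed Con. Median-ratio scaling over the listed genes moved these medians to -0.23 and 0.09, and with them the share of calls that were higher from 47.3% to 61.1% and from 62.2% to 43.3%. Under that scaling Sele stood at 2.43 and Selp at -1.52 against the libraries headed Model, and the directions of all 4 members were the same under every scaling tried.

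The tables were scaled separately, so all 3 groups were set on one scale only as a description, through the libraries headed Cal that both tables share (a factor of 0.894, between 0.892 and 0.897 in the single libraries). On that scale Sele had a mean of 33.1 normalized counts under Con, 1488 under Model and 6309 under Cal. Selp had 14.8, 3217 and 959 in the same order. Both selectins thus stood above Con in both ligated groups, Sele 44.9-fold in Model and 190-fold in Cal, Selp 217-fold in Model and 64.6-fold in Cal.

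In a ratio of 2 genes of the same library the size factor cancels except through the pseudocount of 1, which matters for the low counts in the libraries headed Con. The log2 ratio of Selp over Sele was -1.503, -1.34 and -0.49 in the 3 libraries under Con, 1.32, 0.82 and 1.30 under Model, and -3.24, -2.47 and -2.67 under Cal. Selp counts exceeded Sele counts in all 3 libraries headed Model and in none of the other 6. The mean ratio was 15.4-fold lower in the libraries headed Cal than in those headed Model, 3.20-fold lower than in those headed Con, and 4.80-fold higher in Model than in Con. With pseudocounts of 0.1 and 10 the log2 difference was -3.94 and -3.92 between Cal and Model, -1.64 and -1.96 between Cal and Con, and 2.31 and 1.96 between Model and Con.
The immunoglobulin members also shifted against each other. The log2 ratio of Vcam1 over Icam1 was 0.79, 0.49 and 0.99 in the libraries headed Con and -1.07, -1.92 and -1.31 in those headed Cal, a 4.57-fold fall. Sele over Icam1 averaged -3.02 in Con and -1.67 in Cal, and Selp over Vcam1 -4.89 and -3.03. None of these 6 comparisons had overlapping groups. Each reached p = 0.1 in an exact permutation test, the smallest value possible, also after adjustment over the 6. For Selp over Sele between Cal and Model this was fixed beforehand, since the genes moved in opposite directions without overlap. All 4 genes were listed on a test of these same libraries, and ratios of other listed pairs were not computed for comparison. The ratios are thus a description and not independent evidence. With a pseudocount of 10 the groups of Selp over Vcam1 overlapped (difference 1.28, exact permutation p = 0.2). In the 3 libraries headed Cal the log2 ratio of Sele over Icam1 spread little (SD 0.06), compared with an SD of 0.82 for Selp over Vcam1.

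**Figure D2:**
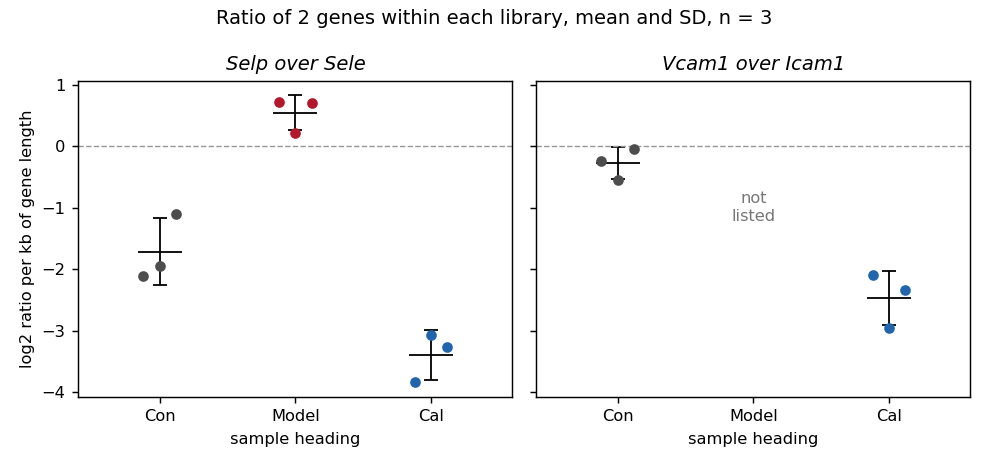
Log2 ratio of Selp over Sele (left) and of Vcam1 over Icam1 (right) within each library, per kb of gene length, with points for libraries and bars for mean and SD (n = 3). The dashed line marks equal levels, and Selp over Sele lies above it in the libraries headed Model and below it in those headed Con and Cal.

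Per kb of gene length, as the tables give it, the members took different orders under each heading. In the libraries headed Con the level was 71.1 ± 21.7 normalized counts per kb for Icam1, 57.6 ± 8.62 for Vcam1, 12.7 ± 3.67 for Sele and 3.76 ± 1.07 for Selp (SD, n = 3). The ranges of Icam1 and Vcam1 overlapped there, although Vcam1 was the lower of the pair in each library (per kb ratios of 0.85, 0.69 and 0.98). In the libraries headed Cal of the same table the order was Icam1 at 5175 ± 886 per kb, Sele at 2423 ± 390, Vcam1 at 943 ± 188 and Selp at 243 ± 96.2, with every neighbour apart by more than its SD. Sele passed Vcam1 between these headings only per kb. In mean normalized counts Vcam1 stayed above Sele, at 511 against 37.1 under Con and 8364 against 7056 under Cal, where their ranges overlapped. Under Con, Vcam1 also stood above Icam1 in mean normalized counts, at 511 against 310. These orders thus depend on the mouse gene lengths used. In the libraries headed Model, Selp stood at 729 ± 143 per kb and Sele at 511 ± 170, whose ranges overlapped, although the ratio within a library favoured Selp each time (1.65, 1.17 and 1.63). In those headed Cal, Sele exceeded Selp 10.5-fold per kb.

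Of 21 other adhesion molecules and vessel wall receptors, 14 were listed in the Cal and Model table, 7 of which passed as higher and 3 as lower in the libraries headed Cal (median log2 fold change 0.96, against -0.52 over all listed genes). Ackr1, the venular chemokine receptor, fell from 142 ± 41.5 to 10.5 ± 2.80 normalized counts, a log2 fold change of -3.62. Aoc3, an endothelial amine oxidase that also serves adhesion, rose by 2.89 on the log2 scale, and Clec14a, an endothelial lectin-like receptor, rose from 27.3 ± 14.6 to 107 ± 38.5 normalized counts. Icam2, the constitutive endothelial relative of Icam1, had 435 ± 46.8 against 215 ± 36.3, a log2 fold change of 1.02, and is not listed against the libraries headed Con. Against Con, 9 of the 21 were listed, none passed as higher and 1 as lower (median -0.46, against 0.37), which was Clec14a at -1.84. Under pseudocounts, scalings, tools and left-out libraries, 6 to 9 of the 14 passed as higher and 3 or 4 as lower, and the 0 and 1 of the 9 did not move. Pecam1, Cdh5, Icam2, Esam, Cd34 and Ackr1 are also among the endothelial markers counted below, so the counts and medians of both lists are not separate results.

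Selectin ligands, the enzymes that build them and leukocyte integrins were thinly listed, and bulk tissue does not tell which cells held these transcripts. Selplg (the P-selectin ligand PSGL-1) and the integrin chains Itgb2, Itga4 and Itgb1 are listed in neither table. Of 20 selectin ligands and enzymes that build their sugars, 6 were listed against Model, 1 passed as higher and 4 as lower in the libraries headed Cal. Cd44, a ligand of E-selectin, fell from 1377 ± 230 to 406 ± 130 normalized counts (log2 fold change -1.80), the fucosyltransferase gene Fut4 had a log2 fold change of -1.71 and the N-acetylglucosaminyltransferase gene B3gnt3 one of -1.47, and the sulfotransferase gene Chst1 rose by 1.29. The call of Chst1 was lost with a pseudocount of 10, and 3 in place of 4 passed as lower under quantile, median-ratio and TMM scaling. Against Con, 6 were listed and only Chst1 passed, at -1.37, and 3 passed as lower under quantile, median-ratio or TMM scaling and 2 without replicate 1 or 2 headed Cal. Of 16 leukocyte integrins and activators, 4 were listed against Model: the log2 fold changes were -2.07 for Itgal (LFA-1), -1.83 for Itgam (Mac-1) and -1.63 for the talin partner Apbb1ip, all 3 called lower, whereas the Rap1 activator Rasgrp2 rose by 3.13. Against Con, 3 of the 16 were listed and none passed, with log2 fold changes between -0.67 and 0.45.
Adhesion molecules are cut from the cell surface by metalloproteases. Of 8 genes of this shedding list, 3 were listed against Model and 4 against Con. Timp3, an inhibitor of the main sheddase, had 9931 ± 414 normalized counts in the libraries headed Model and 3775 ± 369 in those headed Cal (log2 fold change -1.40). Rhbdf2, which escorts that sheddase to the surface, passed as higher in the libraries headed Cal in both tables, by 1.04 against Model and 2.30 against Con. Adam17, the sheddase itself, had a log2 fold change of -0.82 against Model and did not pass the fold limit. The call of Timp3 was lost under quantile normalization, and that of Rhbdf2 against Model without replicate 3 headed Cal or replicate 1 headed Model.

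Tnf, Il1b and most listed genes around them rose with the members against Con, and the list split against Model. It holds cytokine inputs, receptors and transcription factors of endothelial activation, with feedback genes and restraints among them. Of its 32 genes, 17 were listed in the Cal and Con table, 13 passed as higher and 3 (Klf2, Klf4 and Gata2) as lower in the libraries headed Cal (median log2 fold change 2.20, against 0.37 over all listed genes). Il1b rose by 6.55, from 18.6 ± 12.8 to 1609 ± 146 normalized counts, Tnf by 5.79, from 10.6 ± 5.75 to 595 ± 218, and the NF-kB feedback gene Tnfaip3 by 5.71, from 114 ± 53.1 to 5552 ± 532. Il1a was at 3.73, 0.98 and 0 normalized counts in the libraries headed Con and at 215 to 394 in those headed Cal. Among genes named after their values were seen, the NF-kB subunit gene Rela rose from 655 ± 30.8 to 2635 ± 369 normalized counts and the interferon regulatory factor gene Irf1 from 470 ± 144 to 6310.4 ± 1488. The flow-responsive factors Klf2 and Klf4, known as restraints on endothelial activation, fell, Klf2 from 1789 ± 401 to 504 ± 46.7 and Klf4 from 982 ± 88.2 to 247 ± 43.4.
Against Model, 13 of the 32 were listed, 4 passed as higher and 7 as lower in the libraries headed Cal (median -1.12, against -0.52). Tnf rose by 2.04 and Il1b by 2.02, close to the 2.13 of Sele. Their listed receptor genes, named after the values were seen, passed as lower: Tnfrsf1a at -1.79, Il1r1 at -1.40 and Tnfrsf1b at -1.19. Under quantile, median-ratio and TMM scaling 5 of the 13 passed as lower, and 8 did so without some single libraries. Under quantile normalization 5 passed as higher. Il4ra, the receptor chain for IL-4 and IL-13, had a log2 fold change of -1.88, near the -1.81 of Selp. The comparisons against Con and against Model share the libraries headed Cal.
Ratios to Tnf, chosen after the values were seen, gave each selectin its own pattern. Sele counts were 11.5-fold those of Tnf in the libraries headed Model and 12.2-fold in those headed Cal. The single log2 ratios were 2.61, 3.91 and 4.07 under Model and 2.77, 4.10 and 3.96 under Cal. Their mean difference, Cal minus Model, was 0.08, and it ran from -0.38 to 0.50 when 1 library was left out. The log2 ratio of Selp over Tnf was 3.93, 4.73 and 5.37 in Model and -0.47, 1.63 and 1.29 in Cal, which are 25.5-fold and 1.76-fold on average, and 2.75-fold in Cal without replicate 1. The SD of the log2 ratio of either selectin over Tnf was 0.72 to 1.13 under Model and Cal. Under Con, Sele counts were 3.59-fold those of Tnf (log2 ratios of 1.66, 1.24 and 2.64). Selp counts were 1.66-fold there (0.16, -0.11 and 2.14), where Tnf averaged only 10.6 normalized counts. On average, Selp over Tnf in Cal thus stood near its level in Con, and Sele over Tnf stood higher in Model and Cal than in Con.

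**Figure D3:**
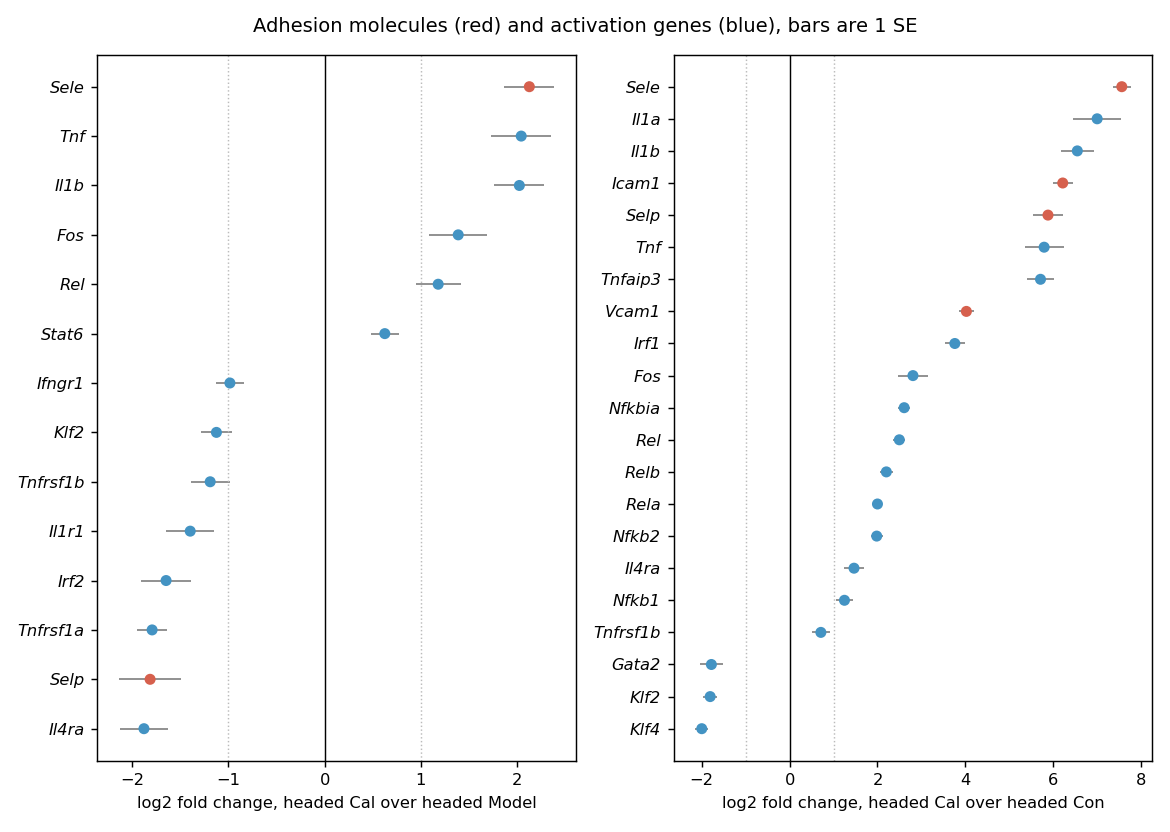
Log2 fold change, headed Cal over headed Model (left) and over headed Con (right), of the adhesion molecules (red) and listed cytokine and transcription factor genes (blue, 1 left out at left), with bars of 1 SE and dotted lines at the fold limit of 1. Sele lies beside Tnf and Il1b on the left while Selp lies beside Il4ra and Tnfrsf1a, and on the right all 4 members lie among the rises.

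Against Con, endothelial markers did not follow the members. In bulk tissue, fewer cells of a type and less RNA per cell cannot be told apart. In that comparison, 11 of 18 endothelial markers were listed, 1 passed as higher and 2 as lower in the libraries headed Cal (median log2 fold change -0.49, against 0.37), and their summed level was 22242 to 24674 normalized counts in Cal and 30743 to 34945 in Con. Cdh5 (VE-cadherin) had a log2 fold change of -0.46 and Pecam1 one of -0.44, while the tight junction gene Cldn5 rose by 1.30 and Egfl7 (-1.15) and Kdr (-1.09) fell. Cldn5 no longer passed under quantile normalization, and the 2 falls became 0 without replicate 2 headed Cal and 1 without replicate 2 headed Con. Sums of endothelial markers were thus lower in the libraries in which the 4 members were 16.4-fold to 190-fold higher.
Against Model, 15 of the 18 were listed, 8 passed as higher and 2 as lower in the libraries headed Cal (median 1.02, against -0.52), with sums of 20074 to 23120 normalized counts in Cal and 11253 to 13719 in Model. Egfl7 rose by 2.17, Cldn5 by 2.14 and the angiopoietin receptor gene Tek by 2.06, the size of the change in Sele. Ackr1 and Robo4 fell, the latter with a log2 fold change of -1.36. Under quantile normalization 13 passed as higher, under median-ratio scaling 12. Most endothelial markers called in this table thus moved with Sele and against Selp, and their part in either result was not tested.
Ratios to the Pecam1 count of the same library, without correction for gene length, were also chosen after the values were seen. Sele had a mean log2 ratio of -7.18 under Con, 0.03 under Model and 0.82 under Cal. Selp had -8.29, 1.17 and -1.97. Icam1 went from -4.16 in Con to 2.49 in Cal and Vcam1 from -3.41 to 1.06. The single ratios of Sele were -1.08, 0.92 and 0.24 under Model and 0.59, 1.04 and 0.82 under Cal, so these groups overlapped. Their mean difference of 0.79 became 0.24 without replicate 1 headed Model and 1.24 without replicate 2, where the groups no longer overlapped.

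**Figure D4:**
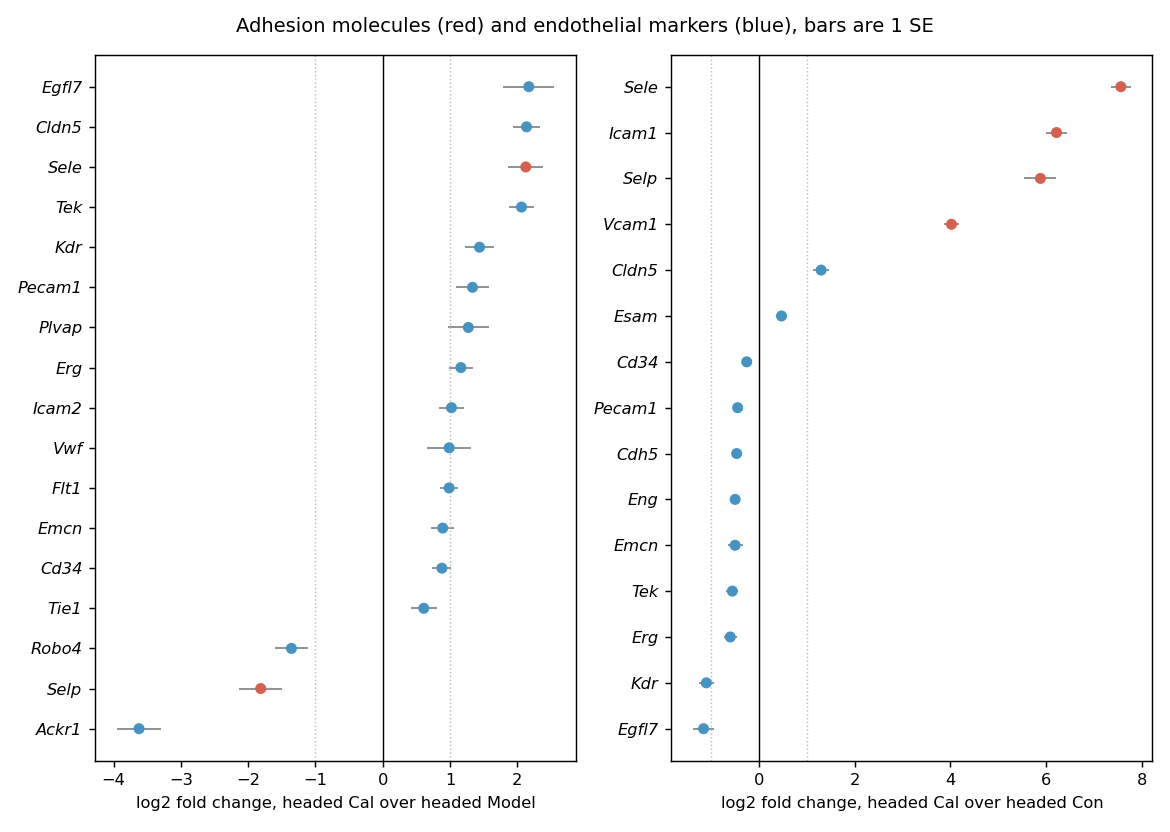
Log2 fold change, headed Cal over headed Model (left) and over headed Con (right), of the adhesion molecules (red) and the listed endothelial markers (blue), with bars of 1 SE and dotted lines at the fold limit of 1. On the left Sele lies among the markers and Selp opposite most of them, and on the right all 4 members lie above every marker.

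Neutrophil markers moved with Selp. Of 9 neutrophil markers, 8 were listed against Model and all 8 passed as lower in the libraries headed Cal, with sums of 82.1 to 249 normalized counts against 1023 to 1094 in Model, and Mpo at 0 reads in every library headed Cal. Camp, whose groups overlapped, lost its call under quantile normalization, a pseudocount of 10 and without replicate 1 or 3 of either heading, and Mpo lost it with that pseudocount. The log2 fold changes were -4.26 for Ngp, -3.75 for Cxcr2, -2.74 for Csf3r and -2.69 for S100a8, in the direction of Selp. Against Con, S100a8 and S100a9 were listed and passed as higher, with sums of 48.5 to 183 against 13.0 to 28.5. Their part in the levels of Selp was not tested.
Most listed monocyte and macrophage markers took the other direction against Model. Of 12, 8 were listed, 5 higher and 1 lower, with sums of 8703 to 9709 in the libraries headed Cal against 2996 to 4756. Cd163 rose by 1.66, C1qc by 1.62, Csf1r by 1.56 and C1qa by 1.56. The 1 called lower was Ccr2, named after the values were seen. It had 34.3 ± 8.27 normalized counts in the libraries headed Model and 12.2 ± 7.88 in those headed Cal (log2 fold change -1.56), the direction of Selp. Against Con, 3 were listed, Cd14 rose by 3.44 and Ccr2 fell by 2.11. Of 7 pan-leukocyte markers, 4 were listed against Model, 1 higher and 2 lower, and none against Con. None of 8 T and B lymphocyte markers was listed in either table.
Platelets also carry P-selectin. Of 10 platelet partners of P-selectin, 3 were listed against Model: Itgb3, which endothelium and macrophages share, had a log2 fold change of -2.61, Itga2b one of -1.27 and Pf4 one of 1.04. Against Con only Pf4 was listed, with a log2 fold change of 0.41. Itga2b and Pf4 were also the listed ones of 8 platelet and megakaryocyte markers, and against Model they moved in opposite directions. In bulk tissue neither can be assigned to platelets alone. Pf4 lost its call against Model with edgeR and DESeq2 under the authors' size factors and without replicate 2 of either heading. Itga2b lost its call with a pseudocount of 10 and under median-ratio scaling. The part of platelets in the levels of Selp was not tested.
Few markers of other heart cells passed, and the counts of these lists varied by up to 3 genes between settings. Of 12 cardiomyocyte markers, 2 were listed against Model, of which Nppa fell by 1.04, and 4 against Con, none of which passed. Fibroblast markers were listed for 4 and 3 of 8, with 2 higher against Model and 1 lower against Con, and mural cell markers for 3 and 5 of 8, with 1 lower against Con. Of 5 lymphatic markers 3 were listed against Model, 1 higher and 1 lower, and none against Con. The part of these cells in the levels of the members was not tested.

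Over the 9 libraries on one scale, the listed genes most like each selectin differed. Among 969 other genes, log2 levels of Maff, a small Maf transcription factor, were most like those of Sele (Pearson r = 0.997), followed by Zswim4 (0.997) and Slc25a25 (0.993). Maff had means of 199, 1184 and 2267 normalized counts under Con, Model and Cal. Those most like Selp were Ptx3, a secreted pentraxin known to bind P-selectin (r = 0.999), and Ch25h, an enzyme of oxysterol synthesis (0.996). Ptx3 had means of 14.9, 10481 and 2056. Selp ranked 51st among the genes most like Sele (r = 0.871).
Over the 6 libraries of the Cal and Con table, where 3 libraries of each heading set nearly the whole pattern, Cxcl2, Maff and Ankrd33b were most like Icam1 (r = 0.999, 0.998 and 0.998 among 2353 genes), and Spry4, Rela and Mat2a most like Vcam1 (0.999, 0.998 and 0.998). Sele stood 34th in likeness to Icam1 and Vcam1 60th. These are descriptions over libraries that share their groups, and no test was made on them.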

How the data were processed

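Heart RNA of 9 rats, 3 per group, was sequenced. Per the paper's methods, the authors aligned reads to the rat reference, took a read count per gene and compared groups in DESeq2. The submitters' processing notes name Bowtie 0.12.2 and the mouse builds mm8 and mm9, and the deposited identifiers and coordinates are those of mouse genes. The deposited sample columns hold a signal, the count of a gene divided by 1 size factor per library, set separately in each of 2 tables. Multiplying back gave whole reads in 100% of cases (tolerance 0.02 reads), and size factors were 0.820 to 1.17. The authors' log2 fold changes and p-values were not used, and their mean columns served only for the check of headings. In 986 of 986 genes common to both tables, the libraries headed Cal had the same reads.

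Libraries were grouped by sample heading. Log2(normalized count + 1) was fitted with limma 3.58.1 (trended prior variance) in R 4.3.3 within each table, with Benjamini-Hochberg adjustment over its listed genes, and a gene passed if its adjusted p was under 0.05 with a log2 fold change exceeding 1 in size. Single values were compared with two-sided exact permutation tests (scipy 1.17.1) adjusted with statsmodels 0.14.6. Other settings tried were a pseudocount of 0.1 or 10, a minimum mean of 10, quantile and median-ratio scaling, count tests of the recovered reads (edgeR 4.0.16, DESeq2 1.42.0), other thresholds, a block for the replicate number, and dropping single libraries. The scripts were tested on simulated data. Between replicates, chi-square was 10.7 to 78.3 times its degrees of freedom, so no pair was counted as 1 sample.

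Named genes were the members, up to 4 per list with the largest log2 fold change where the higher group averaged 20 or more, genes of the adhesion cascade, and the 3 genes most correlated with each member. The members and lists were chosen with earlier results of these data known. Ratios to Pecam1 and Tnf were added after the values were seen. Some genes covered by this rule are not reported here.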

Additional observations from a re-analysis of the deposited data

How the results depend on the processing

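Directions and calls of the 4 members were kept under every alternative run. Of 176 alternative values, 173 kept the direction and call of the reported one or, for counts of genes, a similar size. How far a fold change moved was not part of that count. Over all alternatives the log2 fold change against Model ran from 1.87 to 2.77 for Sele and from -2.07 to -1.31 for Selp. Without the limit on the fold change, the calls rose from 2575 to 4272 of 4288 genes (Cal and Model) and from 712 to 2454 of 2458 (Cal and Con), since genes were listed on a test of the same libraries. Count tests on the recovered reads called 2593 and 716 genes with edgeR and 2596 and 717 with DESeq2 under the authors' size factors. Leaving out 1 library gave 2344 to 2704 and 679 to 775 calls. It gave log2 fold changes of 1.87 to 2.36 against Model and 7.43 to 7.78 against Con for Sele, -2.07 to -1.45 and 5.62 to 6.24 for Selp, 5.97 to 6.42 for Icam1 and 3.89 to 4.18 for Vcam1. Ratios of Selp over Sele ranged from -4.10 to -3.72 (Cal against Model), -1.87 to -1.37 (Cal against Con) and 2.07 to 2.57 (Model against Con), Vcam1 over Icam1 from -2.37 to -1.95, Sele over Icam1 from 1.04 to 1.53 and Selp over Vcam1 from 1.43 to 2.25. Adjusted p over all alternatives of the fit ran from 1.58e-11 to 0.00248 for Sele and from 1.42e-06 to 0.00822 for Selp against Model.

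Libraries with the same replicate number did not deviate together (correlations of -0.14 to 0.11), and the numbers belong to different rats, so they pair nothing. With the replicate number as a block, 2574 and 713 genes were called. Under that replicate block the adjusted p was 0.00112 for Sele and 0.00152 for Selp against Model, and 7.11e-06, 3.24e-05, 7.17e-06 and 1.71e-05 for Sele, Selp, Icam1 and Vcam1 against Con, so no call of a member changed. The conflict of headings, the separate scaling of the tables, the listing of selected genes and the mouse annotation of rat reads limit every value, and 12 to 21 Selp reads per library headed Con limit its fold.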
